A study of Mus musculus with 10 samples.

Results

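Fibroblast growth factors (FGFs) are signalling proteins, and the 10 FGF ligand genes described here (Fgf1, Fgf2, Fgf5, Fgf7, Fgf9, Fgf10, Fgf11, Fgf13, Fgf18 and Fgf21) were found by symbol among the 53801 genes of the deposited expression table. All 10 had a mean of at least 10 normalised counts over the 10 libraries, the level at which a gene was tested, so none of them fell below that limit, which 16227 genes reached. The ligands were measured in mouse embryonic fibroblasts (MEFs), cells grown out from embryos of embryonic day 13.5 on a C57BL/6 background, after the head, liver and heart had been removed. The 4 groups were MIDEAS+/+ (n = 3 libraries), MIDEAS-/- (n = 3), DNTTIP1+/+ (n = 2) and DNTTIP1-/- (n = 2). MIDEAS and DNTTIP1 are the subunits that join the histone deacetylases HDAC1 and HDAC2 in the MiDAC complex, which removes acetyl groups from histones. Each knockout allele is a constitutive short deletion made by CRISPR that brings a premature stop codon into the open-reading frame, and each wild type came from the same family as its knockout. Each library came from a separate MEF line, and no group received a treatment.

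FGFs act between neighbouring cells in most cases. A secreted FGF is held near the cell surface by heparan sulfate chains and binds 1 of the FGF receptor tyrosine kinases, which signal through the adaptor FRS2 to the RAS and ERK cascade. That cascade switches on its own inhibitors, among them Sprouty, Spred and Dusp genes. Fibroblasts and other mesenchymal cells are a classical source of FGFs for epithelium, and FGF2 is a common growth factor of cultured fibroblasts.

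Reads recovered from the deposited values came to between 12339970 and 19761295 per library, with a median of 13822918. Dnttip1 had 197 and 173 normalised counts in the 2 DNTTIP1-/- libraries and 434 and 443 in the DNTTIP1+/+ libraries (log2 fold change -1.25, limma adjusted p = 0.0594). Elmsan1, the gene of MIDEAS, did not fall in MIDEAS-/- libraries (log2 fold change 0.032, limma adjusted p = 0.965), and its count therefore does not check the labels of those libraries. MIDEAS-/- replicate 1 stood apart, with 9.38% of its reads in its 10 most abundant genes against 5.14% to 6.50% in the other libraries. Where leaving it out ended the MIDEAS call of a ligand or turned its direction, both values are given. All 10 fibroblast markers examined (Col1a1, Vim, Pdgfra and others) were expressed, and their summed level lay between 53805 and 70590 normalised counts.

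The ligands differed widely in level. On the scale of normalised counts per kilobase of annotated exon, Fgf7 was the most abundant, with 422 ± 92.0 (SD, n = 10 libraries), and it was above the next ligand in 10 of 10 libraries. Fgf2 followed at 141 ± 54.7, Fgf18 at 111 ± 74.8 and Fgf5 at 92.6 ± 46.5 (SD, n = 10 each). Fgf10 (59.3 ± 31.8), Fgf13 (46.9 ± 17.1), Fgf21 (37.7 ± 18.4) and Fgf9 (32.0 ± 16.3) came next, and Fgf11 (9.59 ± 3.63) and Fgf1 (4.87 ± 3.42) were lowest (SD, n = 10 each). Between neighbours in this order, only the steps from Fgf7 to Fgf2 and from Fgf9 to Fgf11 had the same direction in every library. Fgf2 was above Fgf18 in 7 of 10 libraries, Fgf18 above Fgf5 in 7, Fgf5 above Fgf10 in 9, Fgf10 above Fgf13 in 6, Fgf13 above Fgf21 in 7, Fgf21 above Fgf9 in 4 and Fgf11 above Fgf1 in 8, so these neighbours were not separated beyond the spread between libraries. The order depends on the annotated exon length. Without division by length Fgf18 had a mean of 131 normalised counts, below Fgf10 (273), Fgf5 (232), Fgf13 (188) and Fgf9 (149).

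The ligands also differed in how steady they were. Fgf7 varied least, with its highest library 1.84-fold above its lowest on the per-kilobase scale. Fgf1 and Fgf21 varied most, by 11.1-fold and 10.2-fold, and both rested on as few as 6 reads in a library. Fgf18 varied by 7.64-fold and Fgf10 by 6.48-fold.

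**Figure D1:**
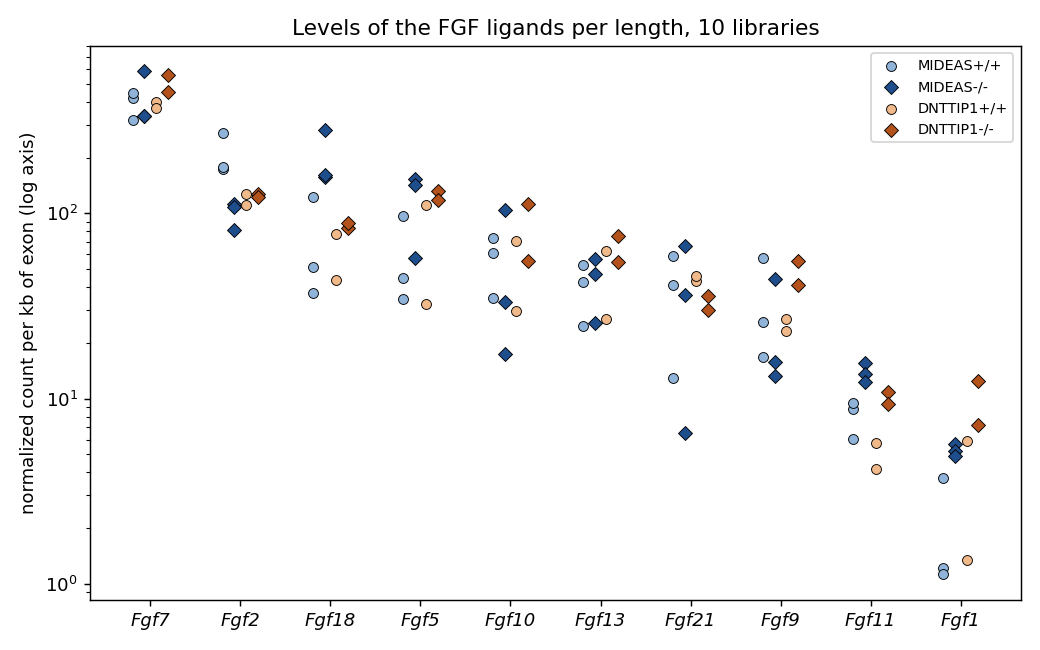
Level of each FGF ligand in each of the 10 libraries, in normalised counts per kilobase of exon on a log axis, with ligands ordered by their mean, circles for wild-type and diamonds for knockout libraries. Fgf7 lies above the other ligands in every library, whereas most other neighbours overlap, and Fgf1 is lowest with a mean of 4.87.

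FGF1 and FGF2 lack a classical signal peptide and leave the cell by an unconventional route. Both bind heparan sulfate tightly, and FGF1 can bind all the FGF receptors. Fgf2 (ENSMUSG00000037225, mm10 chr3:37348346-37410108, plus strand) was the clearest difference among the ligands. It had 1173, 1853 and 1206 normalised counts in the 3 MIDEAS+/+ libraries and 555, 764 and 733 in the 3 MIDEAS-/- libraries. In the DNTTIP1 family it had 752 and 860 normalised counts in wild-type and 866 and 827 in knockout libraries. All 3 MIDEAS+/+ libraries were thus above the 7 other libraries, and the MIDEAS-/- libraries overlapped the DNTTIP1+/+ libraries.

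Fgf2 fell in MIDEAS-/- against MIDEAS+/+ MEFs by 1.03 on the log2 scale (SE 0.19, interval -1.45 to -0.60, limma adjusted p = 0.0245), which is 2.04-fold lower. In bulk libraries fewer cells of a type and less RNA per cell cannot be told apart. The fall was -0.88 on the log2 scale without MIDEAS-/- replicate 1 (limma adjusted p = 0.0567), and the call held with each of the 10 libraries left out in turn. The call was lost when all 5 wild-type libraries served as controls (log2 fold change -0.71, limma adjusted p = 0.168). In DNTTIP1-/- against DNTTIP1+/+ MEFs Fgf2 differed by 0.073 on the log2 scale, with an interval from -0.44 to 0.59 (limma adjusted p = 0.986). The MIDEAS effect minus the DNTTIP1 effect was -1.10 for Fgf2 (interval -1.77 to -0.43, limma adjusted p = 0.990, unadjusted p = 0.00438), so a difference between the knockouts did not pass the test over all genes.

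The wild types themselves differed in Fgf2. The DNTTIP1+/+ level was lower than the MIDEAS+/+ level by 0.78 on the log2 scale (log2 difference -0.78, SE 0.21), with no overlap, but this did not pass the limma test (adjusted p = 0.4002), whereas DESeq2 on the recovered reads called it (log2 difference -0.80, adjusted p = 0.0684). The exons of Fgf2 overlap those of Nudt6, a Nudix hydrolase gene on the opposite strand, and as no strand setting is given their reads cannot be told apart there. Nudt6 had 28.6 to 46.2 normalised counts in MIDEAS+/+ and 39.2 to 54.5 in MIDEAS-/- libraries (log2 fold change 0.22, limma adjusted p = 0.807), far below Fgf2. Gm43439, which overlaps Fgf2 on the same strand, had 0 reads in every library.

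Fgf1 (ENSMUSG00000036585) was scarce. It had 6.69, 6.13 and 20.3 normalised counts in MIDEAS+/+, 31.0, 28.6 and 26.7 in MIDEAS-/-, 7.38 and 32.2 in DNTTIP1+/+ and 39.2 and 67.8 in DNTTIP1-/- libraries. Knockout libraries were above all wild-type libraries of their family in both families. The log2 fold change was 1.50 (SE 0.60, limma adjusted p = 0.242, unadjusted p = 0.0327) for MIDEAS and 1.66 (limma adjusted p = 0.768, unadjusted p = 0.0490) for DNTTIP1, and neither passed.

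**Figure D2:**
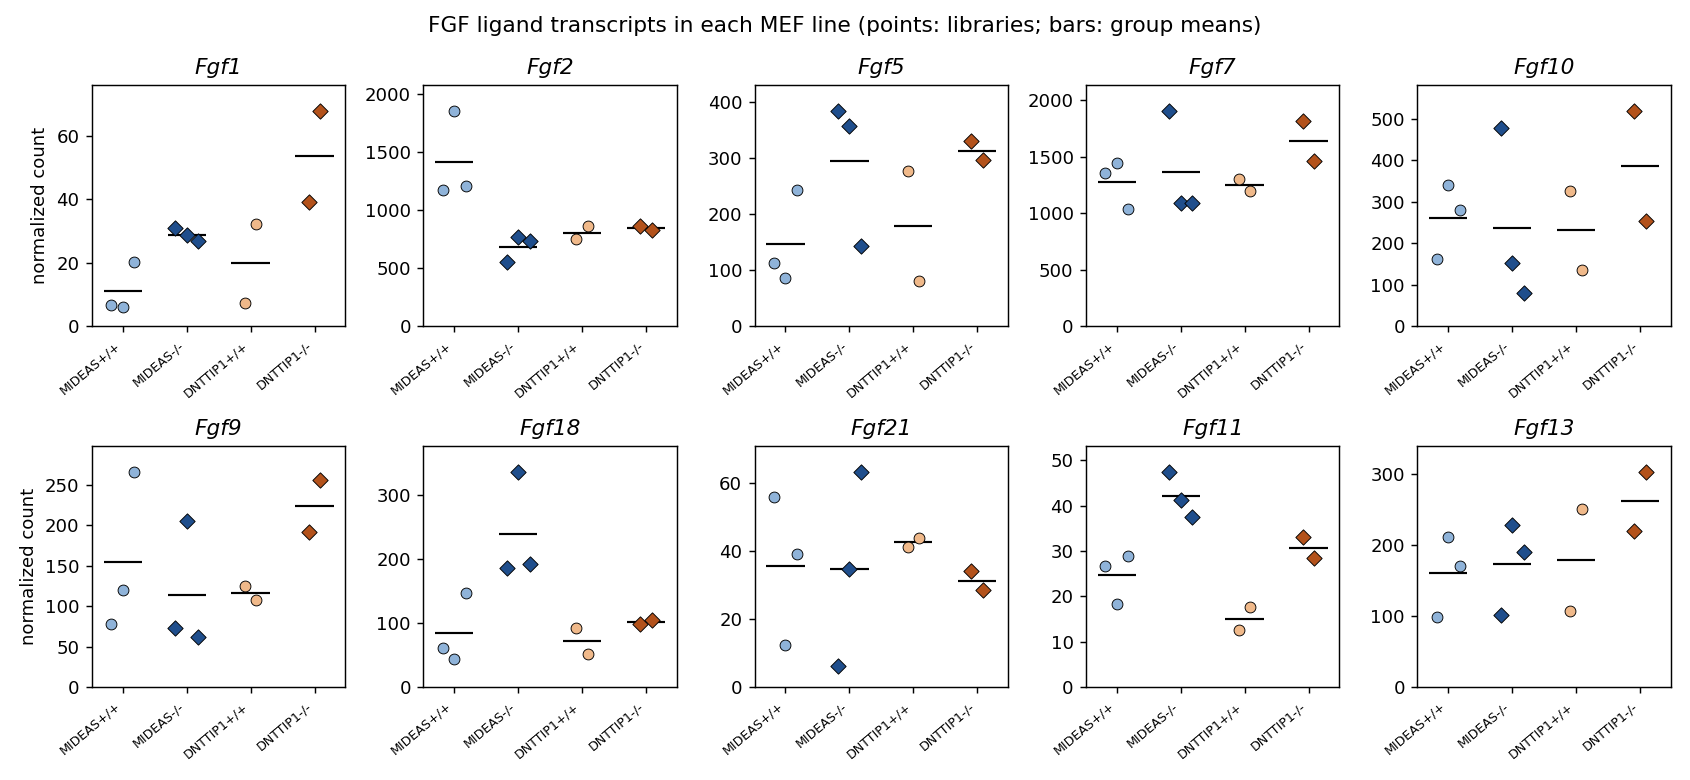
Normalised counts of the 10 FGF ligands, 1 panel each with its own linear axis from 0, by group, with a point for each library and a bar for the group mean. The 3 MIDEAS+/+ points of Fgf2 lie above all others, from 1173 to 1853, and the 3 MIDEAS-/- points of Fgf18 lie above all others, from 186 to 336.

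FGF9 and FGF18 are secreted ligands with a preference for the IIIc forms of the receptors, and both act on developing cartilage, bone and lung. Fgf18 (ENSMUSG00000057967, mm10 chr11:33117430-33147400, minus strand) was the only ligand called higher. It had 61.3, 43.9 and 146 normalised counts in MIDEAS+/+ and 186, 336 and 192 in MIDEAS-/- libraries. It had 91.7 and 51.7 normalised counts in DNTTIP1+/+ and 98.9 and 105 in DNTTIP1-/- libraries. The MIDEAS-/- libraries did not overlap any other group.

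Fgf18 rose by 1.63 on the log2 scale in MIDEAS-/- MEFs (SE 0.44, interval 0.64 to 2.61, limma adjusted p = 0.0859), or 3.09-fold. This call was near the threshold of 0.1. The direction held with each library left out, with log2 fold changes from 1.26 to 2.12, but the call was lost in 7 of the 10 cases, namely without any 1 of the 3 MIDEAS-/-, the 2 DNTTIP1-/- and MIDEAS+/+ replicates 1 and 2 (limma adjusted p from 0.113 to 0.311). Without MIDEAS-/- replicate 1 the log2 fold change was 1.78 (limma adjusted p = 0.121). edgeR on the recovered reads gave 1.51 with an adjusted p = 0.126, and limma without trend and robust settings gave an adjusted p = 0.135. In DNTTIP1-/- MEFs Fgf18 had a log2 fold change of 0.56 (limma adjusted p = 0.922), and the difference between the knockout effects was 1.07 (interval -0.49 to 2.63, limma adjusted p = 0.990).

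The promoter of Fgf18 is shown because Fgf18 was the ligand called higher and its window was the most GC-rich of the ligand windows examined in the RefSeq promoter table (GRCm38.p6). It holds the 250 bases before the annotated start, chr11:33147401-33147650 on the minus strand, with the only GC box in capitals (GGGCGG, here on the reverse strand as CCGCCC).
Fgf18 promoter: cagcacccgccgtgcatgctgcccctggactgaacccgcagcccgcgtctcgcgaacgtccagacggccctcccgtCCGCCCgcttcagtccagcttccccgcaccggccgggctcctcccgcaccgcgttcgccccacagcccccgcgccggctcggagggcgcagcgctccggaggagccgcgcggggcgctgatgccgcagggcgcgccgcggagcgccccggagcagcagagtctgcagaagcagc
Its GC content was 77.2% with 37 CpG dinucleotides, against a median of 52.4% and 6 over 32851 promoter windows of the same length. Of all windows 32.7% held a GC box on either strand. The TATA box, searched as TATAAA, was not found in the Fgf18 window on either strand and occurred in 12.4% of all windows. The AP-1 site, searched as TGANTCA, was not found either and occurred in 6.75%. The CCAAT box, searched by these 5 letters, was also not found and occurred in 33.8%. The GC box was thus the 1 match in this window and overlapped no other. Of the other ligands with a window, Fgf21 had the only TATA box, and it also had 3 GC boxes. Fgf7, the most abundant ligand, had a CCAAT box, no GC box and a GC content of 43.6%. Fgf13 had several windows. Those at chrX:59567349-59567598 and chrX:59134437-59134686 had 3 and 4 GC boxes and GC contents of 74.8% and 74.4%.

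Fgf9 (ENSMUSG00000021974, mm10 chr14:58070547-58112720) showed no such separation. It had 78.0, 121 and 267 normalised counts in MIDEAS+/+, 73.3, 205 and 61.3 in MIDEAS-/-, 125 and 108 in DNTTIP1+/+ and 192 and 256 in DNTTIP1-/- libraries. The groups of the MIDEAS family overlapped (log2 fold change -0.48, limma adjusted p = 0.715). Both DNTTIP1-/- libraries were above their wild types (log2 fold change 0.92), without passing the test.

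FGF7 and FGF10 are ligands made by mesenchyme that act on the IIIb form of FGFR2 in epithelium, and FGF10 is needed for limb and lung budding in the mouse. Fgf7 (ENSMUSG00000027208, mm10 chr2:126034658-126091185) had 1357, 1447 and 1035 normalised counts in MIDEAS+/+ and 1905, 1087 and 1093 in MIDEAS-/- libraries. In the DNTTIP1 family it had 1305 and 1198 in wild-type and 1818 and 1462 in knockout libraries. The MIDEAS groups overlapped and the DNTTIP1 groups did not. The log2 fold change was 0.052 in MIDEAS-/- (limma adjusted p = 0.939) and 0.38 in DNTTIP1-/- MEFs, and neither passed the test. Without MIDEAS-/- replicate 1, its highest library, the MIDEAS value was -0.22.

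Fgf10 (ENSMUSG00000021732, mm10 chr13:118669791-118792115) had 162, 340.3 and 280 normalised counts in MIDEAS+/+, 478, 154 and 80.1 in MIDEAS-/-, 326 and 136 in DNTTIP1+/+ and 519 and 255 in DNTTIP1-/- libraries. Its highest and lowest libraries of the MIDEAS family were both knockouts. The log2 fold change was -0.46 in MIDEAS-/- (limma adjusted p = 0.781) and became -1.16 without MIDEAS-/- replicate 1 (limma adjusted p = 0.284). In DNTTIP1-/- MEFs it was 0.78, and the groups overlapped. Gm16263, which overlaps exons of Fgf10 on the other strand, had 0 to 7 reads in a library.

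The ratio of Fgf7 to Fgf2 differed between the MIDEAS groups. On the per-kilobase scale Fgf7 exceeded Fgf2 by 2.42, 1.63 and 1.79 times in the MIDEAS+/+ libraries and by 7.17, 2.97 and 3.11 times in the MIDEAS-/- libraries. The ratio was 3.63 and 2.91 in DNTTIP1+/+ and 4.38 and 3.69 in DNTTIP1-/- libraries. Fgf2 made up 19.1% to 28.4% of the summed per-kilobase level of the 10 ligands in MIDEAS+/+ and 7.10% to 13.1% in MIDEAS-/- libraries. These proportions describe the same counts as above and were not tested.

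FGF5 is a secreted ligand that ends the growth phase of the hair follicle in mice. Fgf5 (ENSMUSG00000029337, mm10 chr5:98254184-98277030) had 113, 85.8 and 243 normalised counts in MIDEAS+/+, 385, 358 and 143 in MIDEAS-/-, 278 and 80.9 in DNTTIP1+/+ and 332 and 296 in DNTTIP1-/- libraries. MIDEAS-/- replicate 3 lay within the wild-type range, whereas the DNTTIP1 groups did not overlap. The log2 fold changes were 1.02 (SE 0.54, limma adjusted p = 0.393) and 1.06, and neither passed.

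FGF21 is an endocrine hormone of the liver and other tissues that acts through the co-receptor beta-Klotho. Fgf21 (ENSMUSG00000030827, mm10 chr7:45613886-45615490) had 55.7, 12.3 and 39.1 normalised counts in MIDEAS+/+, 6.20, 34.6 and 63.3 in MIDEAS-/-, 41.1 and 43.9 in DNTTIP1+/+ and 34.0 and 28.4 in DNTTIP1-/- libraries. The lowest and the highest library were both MIDEAS-/-. Its log2 fold changes were -0.29 in MIDEAS-/- and -0.44 in DNTTIP1-/- MEFs, and it was the only ligand below its wild type in the latter. The MIDEAS value turned to 0.62 without MIDEAS-/- replicate 1, its lowest library (limma adjusted p = 0.654). Klb, which encodes beta-Klotho, had 10 reads in all, spread over 5 libraries.

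FGF11 and FGF13 belong to the FGF homologous factors, which stay inside the cell and bind voltage-gated sodium channels instead of FGF receptors. Fgf11 (ENSMUSG00000042826, mm10 chr11:69796068-69801857) had 26.7, 18.4 and 28.9 normalised counts in MIDEAS+/+, 47.5, 41.2 and 37.6 in MIDEAS-/-, 12.7 and 17.5 in DNTTIP1+/+ and 33.0 and 28.4 in DNTTIP1-/- libraries. Knockouts and wild types did not overlap in either family. The log2 fold change was 0.76 (SE 0.34, limma adjusted p = 0.297, unadjusted p = 0.0489) for MIDEAS and 0.99 (limma adjusted p = 0.743, unadjusted p = 0.0392) for DNTTIP1, and Fgf11 therefore did not pass in either family.

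Fgf13 (ENSMUSG00000031137) lies on chromosome X (mm10 chrX:59062145-59568071). It had 99.2, 212 and 171 normalised counts in MIDEAS+/+, 102, 228 and 189.9 in MIDEAS-/-, 108 and 251 in DNTTIP1+/+ and 220.5 and 304 in DNTTIP1-/- libraries. Replicate 1 was the lowest library of each of the 4 groups. Xist, the RNA that coats the inactive X chromosome, was at 0 in replicate 1 of MIDEAS+/+, DNTTIP1+/+ and DNTTIP1-/- and at 3299 normalised counts in MIDEAS-/- replicate 1, against 4483 to 8016 in the other libraries. The Y-linked gene Ddx3y had 1486 to 1823 normalised counts in the 3 libraries without Xist and 0 to 5.48 in the 7 others, and Kdm5d, Uty and Eif2s3y were high in the same 3. The MIDEAS+/+ group thus held 1 library with Y-linked expression and the MIDEAS-/- group 0, whereas each DNTTIP1 group held 1 of 2. Without MIDEAS+/+ replicate 1 the call of Fgf2 held and that of Fgf18 was lost. The part of these differences in the level of Fgf13 was not tested. The log2 fold changes of Fgf13 were 0.10 and 0.65, with overlap between the groups of the MIDEAS family and of the DNTTIP1 family.

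Over the 10 ligands, MIDEAS-/- MEFs thus had 1 ligand called higher (Fgf18) and 1 called lower (Fgf2) at an adjusted p under 0.1 in limma. Of all 16227 genes tested, 5.65% were called in this comparison, 3.36% higher and 2.29% lower. Without overlap between the groups were 4 ligands, Fgf1, Fgf11 and Fgf18 higher and Fgf2 lower, beside 22.5% of all genes. At an unadjusted p under 0.05 there were 4 ligands, beside 16.6% of all genes. With edgeR 1 ligand (Fgf2) was called beside 5.32% of all genes, with DESeq2 2 beside 10.3%, and with all 5 wild-type libraries as controls 1 (Fgf18) beside 5.24%. The median log2 fold change was 0.076 for the ligands and -0.024 for all genes tested. It was positive for 6 of the 10 ligands and for 46.4% of all genes.

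In DNTTIP1-/- against DNTTIP1+/+ MEFs, with 2 libraries a group, 0 ligands were called by limma, edgeR or DESeq2, beside 0.0308% of all genes by limma and by edgeR and 1.27% by DESeq2. At an unadjusted p under 0.05 there were 2 ligands, Fgf1 and Fgf11, beside 6.46% of all genes. Of the 10 ligands 9 had a positive log2 fold change, beside 50.1% of all genes, with a median of 0.72 against 0.00062 for all genes. Groups did not overlap for 7 ligands, of which 6 were higher (Fgf1, Fgf5, Fgf7, Fgf9, Fgf11 and Fgf18) and Fgf21 was lower, beside 38.9% of all genes. In the difference between the knockout effects 0 ligands were called by limma, edgeR or DESeq2, beside 0% of all genes by limma and edgeR and 0.074% by DESeq2. At an unadjusted p under 0.05 there was 1, Fgf2, beside 2.79% of all genes. Between the wild types 0 ligands were called by limma or edgeR, beside 0% of all genes by each, and 1, Fgf2, by DESeq2, beside 1.65%. Fgf2 was also the 1 ligand at an unadjusted p under 0.05 there in limma, beside 10.7% of all genes. Fgf2 and Fgf11 were lower in DNTTIP1+/+ than in MIDEAS+/+ libraries without overlap, beside 33.4% of all genes. This comparison shares its libraries with both knockout comparisons.

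**Figure D3:**
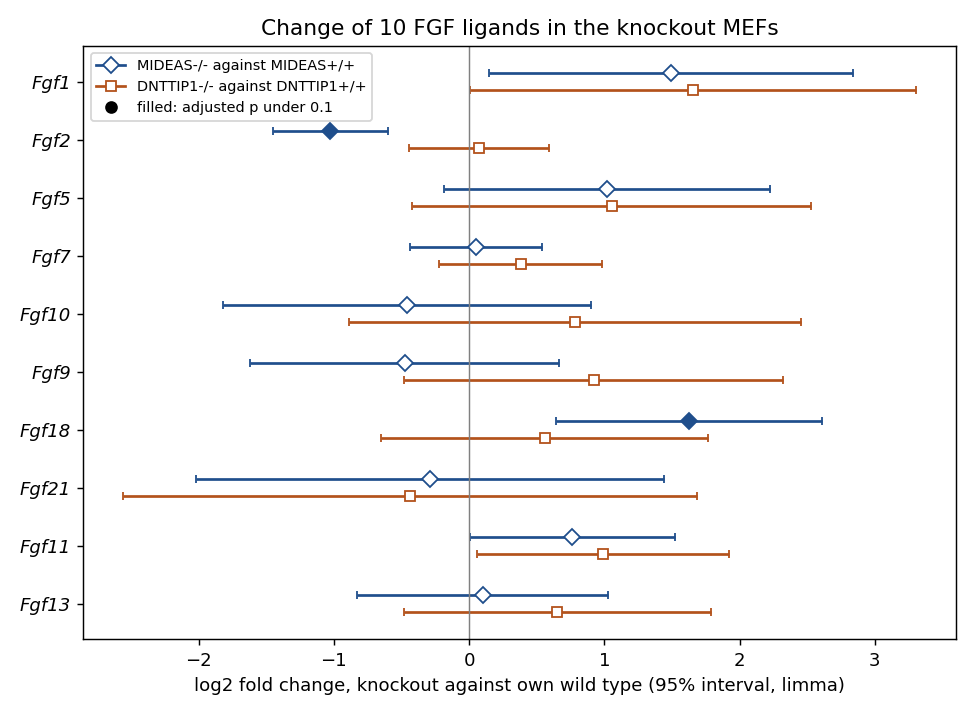
Log2 fold change of each FGF ligand, knockout against the wild type of its own family, with 95% intervals from limma, diamonds for MIDEAS (n = 3 against 3) and squares for DNTTIP1 (n = 2 against 2). Filled symbols have an adjusted p under 0.1, and they are Fgf2 at -1.03 and Fgf18 at 1.63, both in the MIDEAS family.

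The remaining FGF ligands were low. Of 12 other ligands, 3 reached a mean of 10, namely Fgf16 (mean 47.8 normalised counts), Fgf14 (15.5) and Fgf22 (12.3). By limma 0 of these were called in either knockout comparison, beside 5.65% of all genes for MIDEAS and 0.0308% for DNTTIP1. At an unadjusted p under 0.05 there were 0, beside 16.6% and 6.46% of all genes. The lowest log2 fold changes were those of Fgf22, with -1.06 and -1.77 (limma adjusted p = 0.499 and 0.785). Fgf12 just missed the limit with a mean of 9.63, and Fgf3 and Fgf15 had no reads.

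The receptors that the MEFs expressed were Fgfr1, Fgfr2, Fgfr3 and the decoy-like receptor Fgfrl1, 4 of 7 receptors and co-receptors examined. Fgfr1, the main receptor of fibroblasts, was steady, with 3665 ± 111 normalised counts in MIDEAS+/+ (SD, n = 3) and 3720 ± 143 in MIDEAS-/- (SD, n = 3) MEFs, a log2 fold change of 0.021. None of the 4 was called by limma in either knockout comparison, beside 5.65% of all genes for MIDEAS and 0.0308% for DNTTIP1. With edgeR 0 were called too, beside 5.32% and 0.0308%. Fgfr3, which restrains growth of cartilage, had 44.0 ± 27.9 normalised counts in MIDEAS+/+ and 106 ± 10.9 in MIDEAS-/- libraries (SD, n = 3 each; log2 fold change 1.44, limma adjusted p = 0.114). Fgfr3 was called in this comparison by DESeq2 (log2 fold change 1.27, adjusted p = 0.0594) and without MIDEAS+/+ replicate 3 (1.91, limma adjusted p = 0.0373). In the DNTTIP1 family Fgfr3 had 65.1 ± 8.56 in wild-type and 183 ± 73.3 in knockout libraries (SD, n = 2 each; log2 fold change 1.42, limma adjusted p = 0.636). Fgfr3 was the 1 receptor of 4 at an unadjusted p under 0.05 in each comparison, beside 16.6% of all genes for MIDEAS and 6.46% for DNTTIP1. Kl and Fgfr4 had 2 and 48 reads over all libraries.

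Among heparan sulfate carriers and FGF-binding proteins 13 of 14 were tested, and 1 was called higher and 0 lower in MIDEAS-/- MEFs, beside 3.36% and 2.29% of all genes. Gpc3, a glypican anchored at the cell surface that restrains growth of the embryo, rose from 1383 ± 341 to 2820 ± 591 normalised counts (SD, n = 3 each; log2 fold change 1.04, SE 0.19, limma adjusted p = 0.0256). This call held with each library left out, with adjusted p up to 0.0859, and in the DNTTIP1 family Gpc3 had a log2 fold change of 0.55 (limma adjusted p = 0.747). The syndecan Sdc3 (-0.37, adjusted p = 0.140), perlecan gene Hspg2 (-0.49, adjusted p = 0.200) and Fgfbp3 (0.50, adjusted p = 0.226) did not pass the limma test for MIDEAS. Sdc3 was called by DESeq2 (adjusted p = 0.0459). Without MIDEAS-/- replicate 1 the glypican Gpc6 was called as well (log2 fold change 0.92, limma adjusted p = 0.0892). In DNTTIP1-/- MEFs 0 of the 13 were called by limma, beside 0.0308% of all genes. An unadjusted p under 0.05 was found for 2, Gpc3 and Gpc6, beside 6.46% of all genes.

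Of 8 adaptors, among them Frs2, Grb2 and Sos1, all were tested and 0 were called by limma, edgeR or DESeq2 in either knockout comparison. Of all genes these methods called 5.65%, 5.32% and 10.3% for MIDEAS and 0.0308%, 0.0308% and 1.27% for DNTTIP1. The 1 adaptor with an unadjusted p under 0.05 was Gab1 in MIDEAS-/- MEFs, a docking protein of receptor tyrosine kinases (log2 fold change 0.37, limma adjusted p = 0.236). Of all genes 16.6% had such an unadjusted p for MIDEAS and 6.46% for DNTTIP1.

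Of 16 feedback and target genes of FGF signalling tested, 1 was called higher and 1 lower in MIDEAS-/- MEFs, beside 3.36% and 2.29% of all genes. Both called genes encode inhibitors of the pathway. Il17rd, also known as Sef, rose from 793 ± 174 to 1494 ± 288 normalised counts (SD, n = 3 each; log2 fold change 0.92, SE 0.19, limma adjusted p = 0.0331). Spred3 fell from 1444 ± 279 to 739.9 ± 156 normalised counts (SD, n = 3 each; log2 fold change -0.97, SE 0.20, limma adjusted p = 0.0351). Both calls were lost without MIDEAS+/+ replicate 2 or MIDEAS-/- replicate 3, that of Il17rd also without MIDEAS-/- replicate 2 (adjusted p from 0.109 to 0.122 for Il17rd and from 0.106 to 0.144 for Spred3 in limma). The Spred3 call was also lost with all 5 wild-type libraries as controls (limma adjusted p = 0.128). In the DNTTIP1 family the log2 fold changes were 0.59 for Il17rd and -0.49 for Spred3, without passing (limma adjusted p = 0.694 and 0.811). Dusp5, a nuclear phosphatase of ERK, had 871 ± 329 normalised counts in MIDEAS+/+ and 302 ± 4.88 in MIDEAS-/- libraries (SD, n = 3 each), but did not pass (log2 fold change -1.46, limma adjusted p = 0.130). It passed with DESeq2 (-1.52, adjusted p = 0.0116), with separate fits per family (limma adjusted p = 0.0239) and without any 1 library of the DNTTIP1 family (limma adjusted p from 0.0624 to 0.0928).

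In DNTTIP1-/- MEFs 13 of the 16 feedback and target genes had a positive log2 fold change, beside 50.1% of all genes, with a median of 0.33 against 0.00062 for all genes. In the MIDEAS family 6 of the 16 were positive, with a median of -0.073 against -0.024 for all genes. For DNTTIP1 limma called 0 of them, beside 0.0308% of all genes, and DESeq2 2, beside 1.27%. At an unadjusted p under 0.05 there were 5, all positive, beside 6.46% of all genes. The 5 included the transcription factor genes Etv5 (log2 fold change 0.61, limma adjusted p = 0.349, DESeq2 adjusted p = 0.0479) and Etv1 (0.83, limma adjusted p = 0.636) and the cyclin gene Ccnd1 (0.38, limma adjusted p = 0.518). Etv4 was negative in both families (log2 fold change -0.84 for MIDEAS and -0.27 for DNTTIP1, limma adjusted p = 0.223 and 0.958). For MIDEAS 1 of the 16 was higher and 3 were lower at an unadjusted p under 0.05 in limma, beside 16.6% of all genes.

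**Figure D4:**
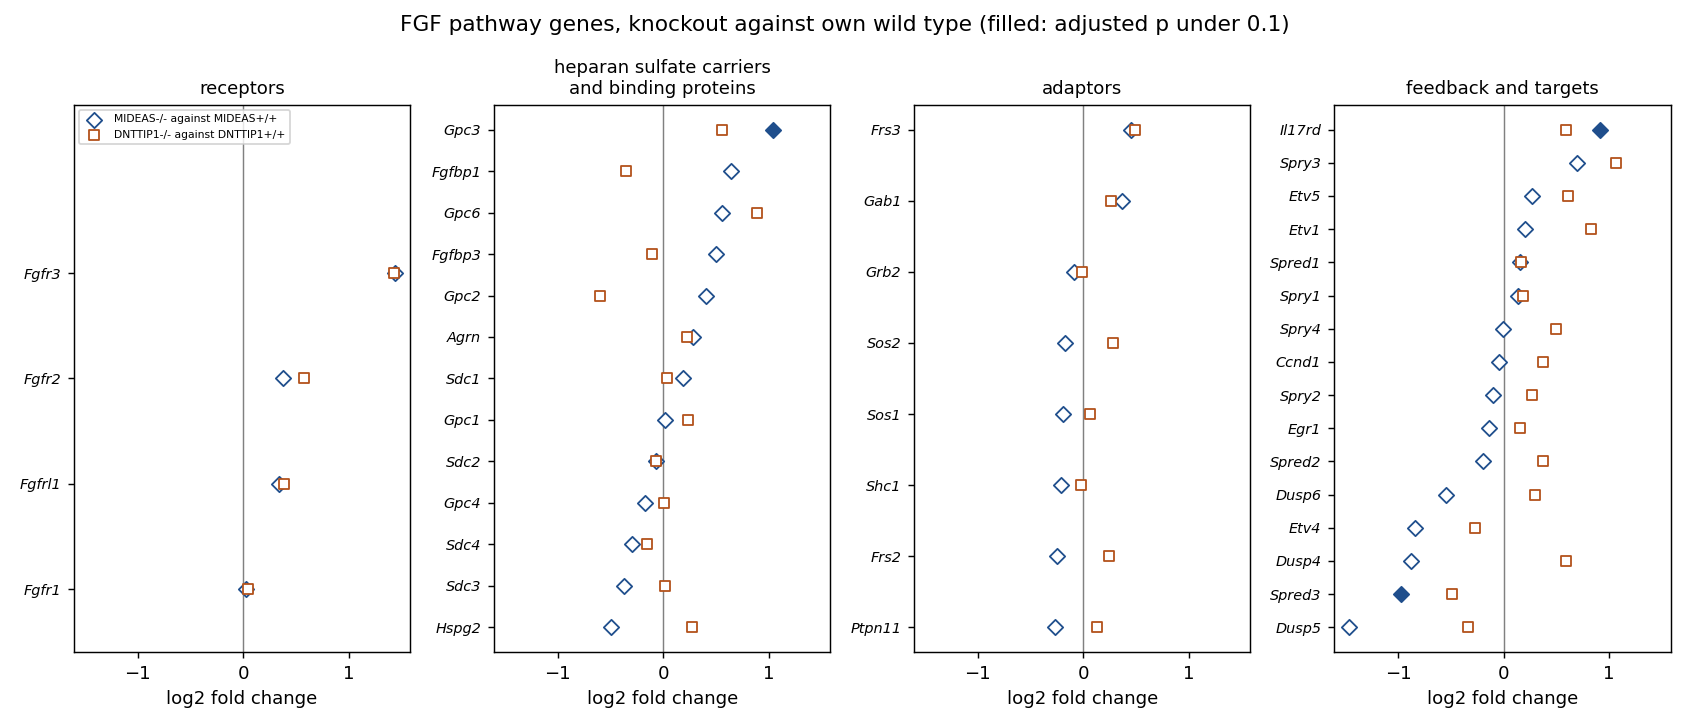
Log2 fold change of the tested receptors, heparan sulfate carriers and binding proteins, adaptors and feedback genes, diamonds for MIDEAS and squares for DNTTIP1 knockouts, each against its own wild type, filled where the adjusted p was under 0.1. The filled points are Gpc3 (1.04), Il17rd (0.92) and Spred3 (-0.97), all for MIDEAS. The adaptors lie between -0.27 (Ptpn11 for MIDEAS) and 0.49 (Frs3 for DNTTIP1, with 0.45 for MIDEAS), none of them filled.

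Other markers moved with the groups. Of 10 chondrocyte and osteoblast markers 9 were tested, and 2 were called higher in MIDEAS-/- MEFs, beside 3.36% of all genes. They were Sox9 (log2 fold change 0.80, limma adjusted p = 0.0827) and Alpl (2.91, limma adjusted p = 0.0703). The call of Sox9 was lost without any 1 of the 6 MIDEAS family libraries, and that of Alpl without any 1 of these except MIDEAS+/+ replicate 3. Both calls were also lost with all 5 wild-type libraries as controls. Alpl had 22.7 ± 0.999 normalised counts in MIDEAS-/- (SD, n = 3) and 29.5 ± 14.8 in DNTTIP1+/+ libraries (SD, n = 2). Of the 9 markers 8 had a positive log2 fold change in each family, and Acan was negative (-0.61 for MIDEAS and -0.96 for DNTTIP1). Of all genes 46.4% were positive for MIDEAS and 50.1% for DNTTIP1. In DNTTIP1+/+ against MIDEAS+/+ libraries 8 of the 9 were positive too, beside 49.5% of all genes. The median log2 value of the list was 0.97 there and 0.80 in each knockout comparison. The summed level of the list lay between 4143 and 5784 normalised counts in MIDEAS+/+ libraries, and between 6077 and 7284 in MIDEAS-/- libraries. In the DNTTIP1 family this sum was 6127 and 7485 in the wild-type libraries and 9554 and 10136 in the knockout libraries. Col2a1 was the largest part of the sum, with a mean of 2786 normalised counts in MIDEAS+/+ and 4010 in MIDEAS-/- libraries. Alpl, Sp7, Ibsp, Bglap and Matn1 were at 0 in at least 1 MIDEAS+/+ library. The summed level of 5 smooth muscle markers was 8308 to 11481 in MIDEAS+/+ and 5387 to 7473 in MIDEAS-/- libraries, and Myh11 was called lower (log2 fold change -2.06, limma adjusted p = 0.0290), a call lost without MIDEAS+/+ replicate 2 or MIDEAS-/- replicate 3. The summed level of 4 mesothelium markers was 407 to 810 in MIDEAS+/+ and 107 to 263 in MIDEAS-/- libraries, with Msln called lower (-3.42, limma adjusted p = 0.00192), also with each library left out. In the DNTTIP1 family smooth muscle markers summed to 8142 to 9210 in wild-type and 6280 to 7773 in knockout libraries, and the mesothelium sums overlapped. Msln had 267 and 316 normalised counts in the wild-type and 128 and 145 in the knockout libraries of that family (log2 fold change -1.09, limma adjusted p = 0.512). All 4 mesothelium markers had a negative log2 fold change there, and 0 were called, beside 0.0308% of all genes. In MIDEAS-/- MEFs 1 of the 5 smooth muscle and 1 of the 4 mesothelium markers were called lower, beside 2.29% of all genes. The summed level of 4 endothelium markers was 193 to 386 in MIDEAS+/+ against 394 to 518 in MIDEAS-/- libraries, and 193 and 214 in DNTTIP1+/+ against 443 and 488 in DNTTIP1-/- libraries. Of its 2 tested members 1 was called higher in MIDEAS-/- MEFs, beside 3.36% of all genes. It was Tek (56.5 ± 34.4 to 311 ± 125 normalised counts, SD, n = 3 each; log2 fold change 2.61, limma adjusted p = 0.0739), a call lost without any 1 of 5 MIDEAS family libraries. Kdr was at 248 ± 109 and 147 ± 67.7 (SD, n = 3 each; log2 fold change -0.77, limma adjusted p = 0.612), and the defining markers Pecam1 and Cdh5 had group means from 1.04 to 8.02 in that family. The sums of skeletal muscle, neuron, epithelium, macrophage and adipocyte markers overlapped between the groups of the MIDEAS family. Called were 1 of 6 tested skeletal muscle markers, 1 of 4 neuron and 1 of 3 epithelium markers, beside 5.65% of all genes. Of the 4 macrophage and 2 adipocyte markers tested, 0 were called. The neurofilament gene Nefl was higher in MIDEAS-/- MEFs (3.49 ± 1.47 against 69.7 ± 38.5 normalised counts, SD, n = 3 each; log2 fold change 3.88, limma adjusted p = 0.0181), also with each library left out. Of the other tested neuron markers, Stmn2 (-1.46) and Elavl4 (-1.19) were lower and Tubb3 (0.41) was higher. None of them was called (limma adjusted p = 0.143, 0.347 and 0.361). The desmin gene Des (-1.69, limma adjusted p = 0.0537) and the keratin gene Krt18 (-1.57, limma adjusted p = 0.0641) were called lower. These calls were lost without any 1 of 3 and of 5 MIDEAS family libraries. The 5 other tested skeletal muscle markers had positive log2 fold changes and were not called. Of 10 fibroblast markers 2 were called higher and 0 lower in MIDEAS-/- MEFs, beside 3.36% and 2.29% of all genes. They were the proteoglycan genes Dcn (log2 fold change 1.23, limma adjusted p = 0.0410) and Lum (2.52, limma adjusted p = 0.0716). Each call was lost without any 1 of 5 MIDEAS family libraries (limma adjusted p up to 0.175 for Dcn and 0.242 for Lum). That of Lum was also lost with all 5 wild-type libraries as controls. In this comparison 6 of the 10 markers had a negative log2 fold change, among them Fn1 (-0.43, limma adjusted p = 0.151). The part of these markers in the values of Fgf2 and Fgf18 was not tested.

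Each ligand had other genes with a like pattern over the 10 libraries. For Fgf2 the nearest by Pearson's r of log2 values were 9930111J21Rik2 (r = 0.97, rho = 0.83) and Rock2, a kinase that acts on the actin cytoskeleton (r = 0.97, rho = 0.93). For Fgf18 they were Hmcn1, which encodes the extracellular matrix protein hemicentin (r = 0.95, rho = 0.95), and Lonrf1 (r = 0.94, rho = 0.96). The nearest gene was Ttc39c for Fgf7, Ttll1 for Fgf10, Chst7 for Fgf5, Car10 for Fgf9, Nfatc2 for Fgf21, Aass for Fgf11, Mcf2l for Fgf13 and Nap1l5 for Fgf1, and over the 10 ligands this best r lay between 0.94 and 0.98. These are the highest of 16226 values each over 10 libraries that share their groups, and they are given as a description.

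Among the ligands themselves, Fgf7 and Fgf10 had an r of 0.75 (rho 0.67), Fgf11 and Fgf18 of 0.74 (rho 0.84) and Fgf5 and Fgf18 of 0.72 (rho 0.70). Fgf2 and Fgf18, the called ligands, had an r of -0.62 (rho -0.61), and Fgf10 and Fgf21 of -0.66 (rho -0.73). These values too are over n = 10 libraries in 4 groups and include the differences between the groups given above.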

How the data were processed

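Total RNA of the MEF libraries was enriched for mRNA and sequenced. The submitters' processing notes and the study's methods name Trim Galore 0.4.5 with cutadapt 1.11, STAR 2.5.2b on mm10, removal of duplicates with Picard, SAMtools 1.3.2 and DESeq2. Read counter, annotation and strand setting: not given in the sources used here. Each deposited signal value is the normalised count of a gene, for which the authors scaled its reads by a size factor of the library. Removal of duplicates lowers the counts of abundant genes most. Dividing by the value of 1 read gave whole reads for 100% of the values (tolerance 0.01). The authors' own comparisons (log2 fold changes and p-values in the other deposited tables) were not used.

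Genes reaching a mean of 10 normalised counts (16227) entered a limma fit (version 3.58.1, R 4.3.3) of log2(value + 1), with a mean-variance trend and robust shrinkage, that took in 10 libraries and 4 groups. The threshold was a Benjamini-Hochberg adjusted p under 0.1. Fold changes are on the log2(value + 1) scale, which understates changes of low genes. Each knockout was set against its own wild type. The fit was tested on simulated data. Alternatives were other pseudocounts, filters, scalings, thresholds and controls, separate fits, the replicate number as a block, each library left out in turn, and edgeR 4.0.16 and DESeq2 1.42.0 on the recovered reads. Exon lengths and overlaps came from GENCODE gene models of GRCm38 (mm10), promoters from RefSeq (9 of the 10 ligands had a window used here). Figures were drawn with matplotlib 3.10.9.

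The ligands and gene lists were chosen with earlier results of these data known. All 10 ligands are named, and of each pathway list the called members and up to 4 with the smallest p. Etv4 is named besides, next to Etv1 and Etv5. Libraries are taken as separate MEF lines because a figure legend of the study names independent MEF lines. No pair of a group agreed within sampling noise (their chi-square per gene was 18.2 to 61.7), which cannot tell separate lines from repeat cultures of the same line.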

Additional observations from a re-analysis of the deposited data

How the results depend on the processing

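The 2 ligands called in the MIDEAS comparison became 1 (Fgf2) at an adjusted p under 0.05, without trend and robust settings, with edgeR and with separate fits per family, and 1 (Fgf18) with all 5 wild-type libraries as controls. They ranged from 1 to 2 when 1 library was left out. In the comparison of the wild types DESeq2 called 1 ligand, Fgf2. Over 14 other settings the log2 fold changes of the ligands kept their direction except in 8 cases, none of them called: Fgf2 for DNTTIP1 with all 5 wild types (-0.39), Fgf7 between wild types with TMM scaling (0.0021), Fgf18 between wild types under the block (0.092), and, in the difference between the knockout effects, Fgf5 with 1 total per library (0.011), edgeR (0.22) and DESeq2 (0.20) and, with all 5 wild types, Fgf21 (-0.34) and Fgf11 (0.44). The causes were not tested.

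With 1 library left out, 34 of the ligand values changed sign. In the MIDEAS comparison the ranges of the ligands concerned were -0.22 to 0.19 for Fgf7, -1.16 to 0.12 for Fgf10, -1.01 to 0.0074 for Fgf9, -0.96 to 0.62 for Fgf21 and -0.21 to 0.44 for Fgf13, and in the DNTTIP1 comparison -0.023 to 0.17 for Fgf2. In the difference between the knockout effects they were -1.15 to 0.83 for Fgf1, -0.92 to 0.85 for Fgf5, -0.52 to 1.06 for Fgf21 and -1.16 to 0.052 for Fgf13. Between the wild types they were -0.33 to 1.65 for Fgf1, -0.71 to 1.06 for Fgf5, -0.16 to 0.077 for Fgf7, -0.86 to 0.39 for Fgf10, -0.62 to 0.26 for Fgf9, -0.50 to 0.40 for Fgf18, -0.13 to 0.91 for Fgf21 and -0.51 to 0.71 for Fgf13.

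The count of called genes moved more than that of ligands. It was 917 in the MIDEAS comparison and 466 at an adjusted p under 0.05, 589 without trend and robust settings, 1674 with DESeq2 and 263 to 1001 with 1 library left out, lowest without MIDEAS+/+ replicate 2. It was 5 for DNTTIP1 and 0 at an adjusted p under 0.05 or with separate fits, 17 without the filter, 206 with DESeq2, 126 with all 5 wild types and 0 to 7 with 1 library left out. It was 0 for the difference and 12 with DESeq2 and 2 with all 5 wild types, and 0 between the wild types and 267 with DESeq2 and 240 without MIDEAS-/- replicate 1.

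Replicate numbers did not pair the MIDEAS libraries. Same-numbered MIDEAS libraries deviated together with correlations of 0.21, -0.11 and -0.049, and 2 of 6 libraries were closest to their own number. In the DNTTIP1 family, with 2 libraries a group, same-numbered libraries deviated together with a correlation of 0.66. There replicate 1 of both groups had Y-linked expression without Xist, and replicate 2 of both had Xist. Whether these numbers mark pairs was not tested. With the replicate number as a block 2127 genes were called for MIDEAS, 94 for DNTTIP1, 3 for the difference and 105 between the wild types, and with a block within family 2025, 82 and 0 (not run between the wild types). The ligands called under either block stayed at 2, 0 and 0. Calls that the block and the block within family added for MIDEAS included Dusp5 (limma adjusted p = 0.0168 and 0.00344) and Fgfr3 (0.0431 and 0.0444), the first also Sdc3 (0.0666) and the second Gpc6 (0.0798).

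Fgf1, Fgf11 and Fgf21 rest on as few as 6, 12 and 6 reads in a library, and 2 or 3 libraries a group leave intervals of the log2 fold change as wide as 0.15 to 2.84 for Fgf1 in the MIDEAS comparison.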
